A study of Mus musculus with 15 samples.

Results

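The insulin-like growth factor (IGF) genes examined here were the ligands Igf1 and Igf2, the receptors Igf1r and Igf2r, and the binding protein genes Igfbp2, Igfbp3, Igfbp4, Igfbp5, Igfbp6 and Igfbp7. They are 10 of the 18193 genes annotated on the array, and they were taken as every probe set whose annotated symbol is one of these names, 28 probe sets in all. Of these, 18 probe sets from 8 genes passed a filter on low signals, which asked for a signal above the array's own median on at least 3 of the 15 arrays. Igf2 and Igfbp6 did not pass and are described by their signals only.

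Both IGFs are secreted growth factors. They act through the tyrosine kinase receptor that Igf1r encodes, which signals through adaptor proteins, PI3 kinase and AKT and restrains FOXO transcription factors. The receptor encoded by Igf2r binds IGF2 and carries it to lysosomes, so it lowers the amount of that ligand outside the cell. The binding proteins hold IGFs in the extracellular fluid and so set how much ligand reaches the receptor, and proteases that cut them release the ligand. IGFBP7 is a more distant relative with weak affinity for IGFs. In human glioma, IGFBP2 is known for high levels in high-grade tumours.

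The study sorted cells by flow cytometry into a side population (SP), which pumps out a DNA dye, and the remaining non-side population (non-SP), and measured RNA on Affymetrix mouse arrays, with 3 arrays in each of 5 groups. The tumour groups were SP cells of line 3447, SP cells of line 4346 and non-SP cells of line 3447. Each line is a tumorsphere culture, grown as floating spheres, from a brain tumour of an S100beta-verbB;p53-/- or S100beta-verbB;p53+/- mouse. It was injected into the brains of immunodeficient mice, strain NOD.Cg-Prkdc<scid>Il2rg<tm1Wjl>/SzJ, recovered from 3 of them and cultured again before sorting. The controls were untransformed neurospheres, which are cultures of neural stem and progenitor cells, from mice of the same genotypes, sorted likewise into an SP and a non-SP group. All 5 groups therefore carried the verbB transgene, driven by the S100beta promoter, and lacked 1 or both copies of p53, and the genotype of each sample is not given. A line stands for 1 tumour, so its 3 arrays show the spread among recipient mice. Whether the neurospheres came straight from 3 separate mice or from mice into which they had been injected is uncertain, since the study describes both.

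The arrays' median signals ran from 40.0 to 89.3, the highest on array 3 of the 3447 SP. For actin the 3' to 5' ratio, a sign of RNA integrity, was 5.30 on array 3 of the 4346 SP, against 2.49 to 3.29 on the other 14 arrays. Of 7 neural stem and progenitor markers, 6 lay above the array median on all 3 arrays of every tumour group. In both neurosphere groups 7 did so. Yet 4, 5 and 2 of them were called lower in the 3447 SP, the 4346 SP and the 3447 non-SP against neurosphere cells of the same population. Prom1 differed by -3.65, -3.71 and -2.62 on the log2 scale and Nes by -1.73, -1.67 and -1.56. Prom1 lay above the array median on every neurosphere array, and among tumour arrays on 1 of the 3447 non-SP only. It thus passed the filter through the groups in which it was high, and its differences are a description. Of 6 oligodendrocyte progenitor markers, 4 were called higher in each of these comparisons and 2, 1 and 0 lower, and the median log2 differences were 2.70, 3.89 and 2.27. Sox10, a transcription factor of that lineage, differed by 7.49, 8.24 and 7.20. It lay above the array median on all 9 tumour arrays and on no neurosphere array. It thus passed the filter only through the groups in which it was high, and its differences are a description. Those called lower were Olig1 and Olig2 in the 3447 SP, at -1.26 and -1.23, and Olig2 in the 4346 SP, at -1.07. The summed signal of the list was 10400 to 14720 in the 3447 SP, 17010 to 22640 in the 4346 SP and 16300 to 18460 in the 3447 non-SP, against 6978 to 12170 in the neurosphere SP and 8841 to 11530 in the neurosphere non-SP. Of 9 microglia and macrophage markers, 8 lay below the array median on all arrays of every group. The summed signal of 6 meningeal fibroblast markers was 1976 to 4582 in the 3447 SP, 8664 to 9289 in the 4346 SP and 849.9 to 2424 in the 3447 non-SP, against 757.7 to 979.9 in the neurosphere SP and 639.9 to 1143 in the neurosphere non-SP. Col1a1, a collagen chain, averaged 1843, 7532 and 705.2 in the 3 tumour groups in that order, against 100.4 and 46.6 in the neurosphere SP and non-SP, and Col1a2 lay below the array median on all arrays of every group. Of 4 fibroblast markers tested, 2, 3 and 1 were called higher and 0 lower, and the summed signals of the 3447 non-SP and the neurosphere non-SP overlapped. Lum, called higher in the 3447 SP and the 4346 SP, lay above the array median on tumour arrays only, so it passed the filter only through them. Of 6 astrocyte markers 4, 2 and 3 were called lower and 0 higher. Their summed signal was 3230 to 5288 in the 3447 SP, 6981 to 10110 in the 4346 SP and 2065 to 3571 in the 3447 non-SP, against 12570 to 29730 in the neurosphere SP and 14750 to 16900 in the neurosphere non-SP. Gfap, an astrocyte filament gene, was not among those called, at 0.41, 0.28 and 0.06. Aqp4, called lower in the 3447 SP and the 4346 SP, lay above the array median on neurosphere arrays only, so it passed the filter only through them. The part of these lists in the results on IGF genes was not tested.

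**Figure D1:**
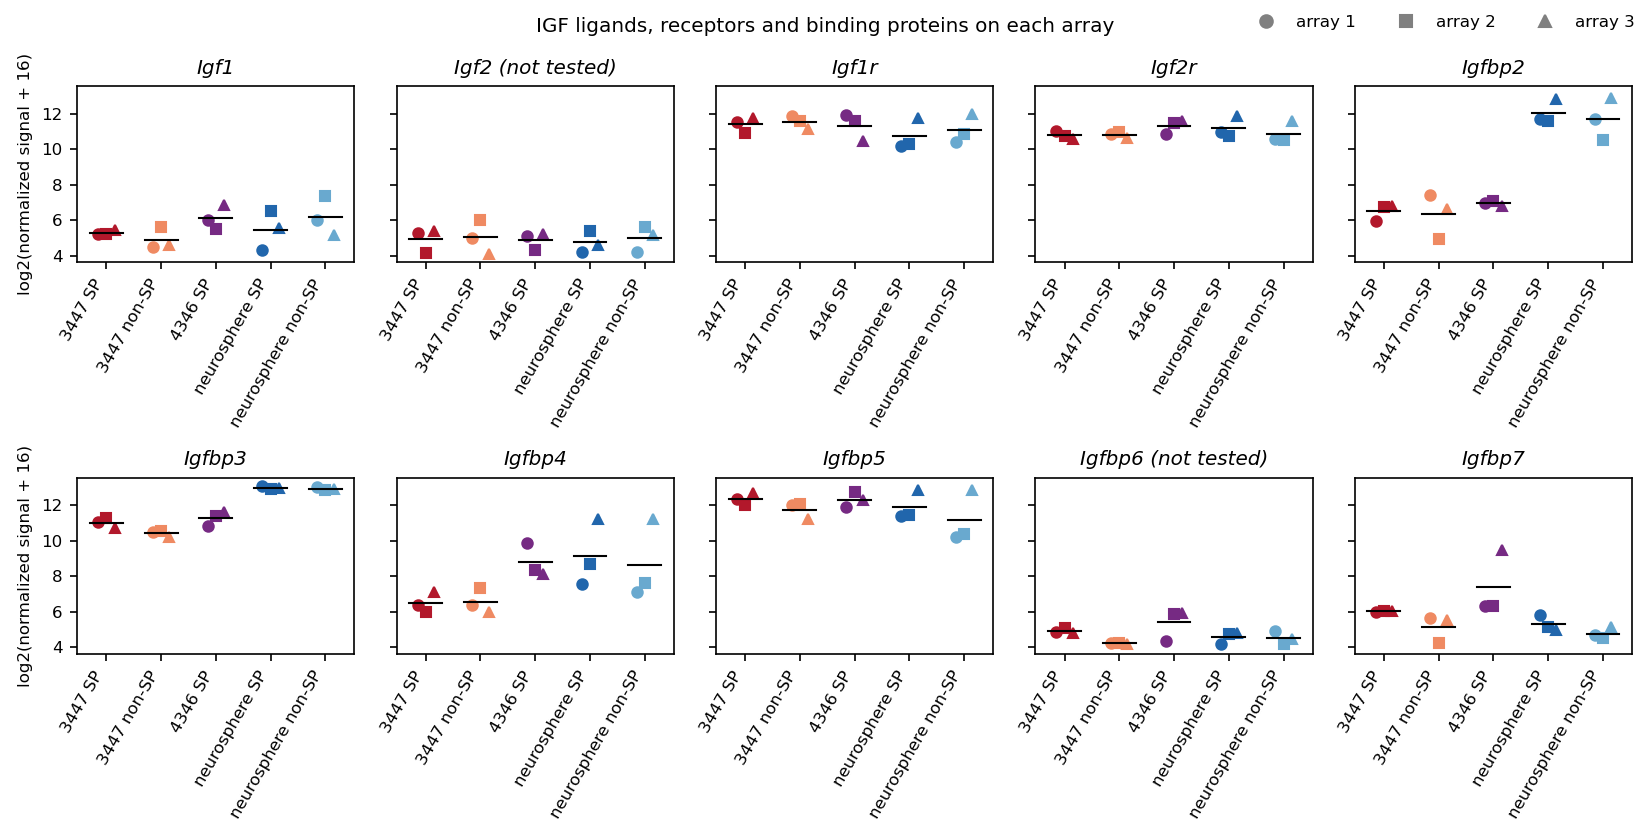
Level of each IGF gene on every array, on the log2 scale of the normalized signal plus 16, with 1 panel per gene, 1 column per group and a black bar at the group mean. Circles, squares and triangles are arrays 1, 2 and 3. Igfbp2 and Igfbp3 lie higher on all 6 neurosphere arrays than on any of the 9 tumour arrays, and the triangles stand above the other neurosphere points for Igf1r, Igf2r, Igfbp2, Igfbp4 and Igfbp5.

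The comparison of tumour cells with neurosphere cells of the same sorted population asked which genes separate the transformed from the untransformed cultures. Igfbp2 and Igfbp3 were lower in the tumour cells in each of the 3 comparisons made, by 33.7 to 45.6 times for Igfbp2 and by 3.22 to 5.71 times for Igfbp3. Igfbp7 was called higher in the 4346 SP than in the neurosphere SP, but it passed the low-signal filter only through the 4346 SP arrays and the call rested on 1 of them. Igf1 and both receptors did not pass the test in any comparison.

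Igfbp2 (probe set 1454159_a_at), the gene of an IGF-binding protein made by neural progenitors, had signals of 55.4, 86.3 and 129 in the 3447 SP, of 98.6, 109.5 and 87.6 in the 4346 SP and of 139, 18.7 and 78.8 in the 3447 non-SP. In neurospheres its signals were 3337, 3021 and 7298 in SP cells and 3385, 1441 and 7706 in non-SP cells. The lowest neurosphere value was thus above the highest tumour value by about an order of magnitude. Tumour values lay above the array median on 2 arrays of the 3447 SP, 2 of the 3447 non-SP and 3 of the 4346 SP. In the 3447 non-SP they ran from 18.7, where the array median was 57.8, to 139, where it was 40.0. The log2 difference was -5.51 ± 0.59 (SE) between the 3447 SP and the neurosphere SP, with a 95% interval of -6.76 to -4.26 and an adjusted p of 6.16e-06. It was -5.07 ± 0.59 for the 4346 SP, with an adjusted p of 1.44e-05. Between the non-SP cells of line 3447 and of neurospheres it was -5.39 ± 0.59, with an adjusted p of 7.51e-06. All 3 differences passed the threshold of 0.05 under all 30 alternative settings of the processing. Since tumour signals were low, the size of the difference depends on the constant added before the logarithm, and with 64 in place of 16 the 3447 SP value was -4.91. Among the 5 group means the 4346 SP, the 3447 SP and the 3447 non-SP followed each other at 6.95, 6.51 and 6.33 on the normalized log2 scale, with overlapping arrays, and the neurosphere SP and non-SP lay at 12.02 and 11.72, again overlapping. The arrays measured RNA of sorted bulk populations, in which fewer cells of a type and less RNA per cell cannot be told apart.

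Igfbp3 (1423062_at), the gene of the main carrier of IGFs in serum, had signals of 2107, 2484 and 1589 in the 3447 SP, of 1827, 2721 and 3197 in the 4346 SP and of 1429, 1472 and 1187 in the 3447 non-SP. Neurosphere signals of Igfbp3 were 8832, 7741 and 8036 in SP cells and 8007, 7400 and 7794 in non-SP cells. The tumour groups and the neurosphere groups did not overlap. Unlike Igfbp2, the gene remained above its array's median on all 15 arrays. The log2 difference from the neurosphere SP was -1.98 ± 0.20 in the 3447 SP (adjusted p 3.12e-06) and -1.69 ± 0.20 in the 4346 SP (adjusted p 1.53e-05), and in the 3447 non-SP it was -2.51 ± 0.20 from the neurosphere non-SP (adjusted p 2.07e-07). A second Igfbp3 probe set, 1458268_s_at, gave -2.49, -2.61 and -3.09 in the same order, each past the threshold when every probe set was tested on its own, where 15.2%, 19.8% and 15.2% of 26256 probe sets were called. All 3 differences passed under all 30 alternatives.

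Read against all genes, 2 of the 8 tested IGF genes were called lower and 0 higher in the 3447 SP against the neurosphere SP, where 19.6% of the 11908 genes were called, 8.96% lower and 10.7% higher. In the 4346 SP 2 were lower, where 24.3% of genes were called, 10.3% lower and 14.0% higher. The 1 called higher there, Igfbp7, entered the test only through the 4346 SP arrays and supports nothing. In the 3447 non-SP against the neurosphere non-SP 2 were lower and 0 higher, where 19.4% were called, 8.21% lower and 11.2% higher. Arrays of the compared groups did not overlap for 4, 3 and 2 of the 8 genes, against 36.0%, 36.9% and 38.8% of all genes. The counts without overlap and the totals called were near the background. The share called lower was above that of all genes, but it rested on 2 genes, Igfbp2 and Igfbp3, and was not tested. The median log2 difference of the 8 genes was -0.30 in the 3447 SP, 0.26 in the 4346 SP and -0.67 in the 3447 non-SP, against -0.03, 0.02 and 0.04 over all genes. These 3 comparisons are not independent, because the 3447 SP and the 4346 SP were set against the same neurosphere SP arrays.

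**Figure D2:**
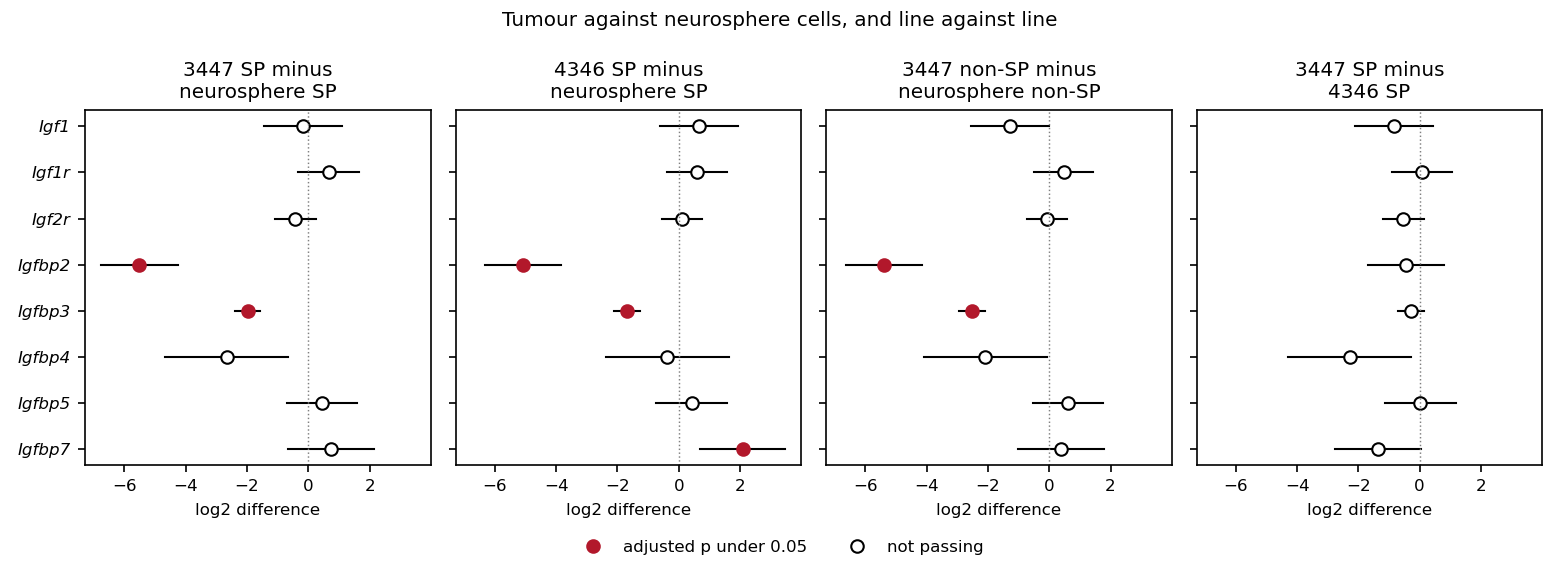
Log2 difference of each of the 8 tested IGF genes in the comparisons of tumour with neurosphere cells and of line 3447 with line 4346, with 95% intervals and 3 arrays per group. Filled red points passed the adjusted p threshold of 0.05. Igfbp2 and Igfbp3 lie left of 0 in the first 3 panels, Igfbp7 lies right of 0 in the second, and no gene passed in the fourth.

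The starts of Igfbp2, Igfbp3 and Igfbp5 are shown because the first pair of genes was low together in tumour cells, while Igfbp5 is the closest neighbour of Igfbp2 and was not. Igfbp2 lies on chromosome 1 at 72824480 to 72852474 of GRCm38.p6 and Igfbp5 at 72858065 to 72874865, on the opposite strand and 5.59 kb away. Igfbp3 lies on chromosome 11 at 7206086 to 7215498, and the coordinates given for other genes below are of the same build. The sequences, from RefSeq (GRCm38.p6), run 5′ to 3′ along the gene's strand from 250 bases before to 50 after a transcription start, and capitals mark the GC box, GGGCGG on either strand (CCGCCC).
Igfbp2, chr1:72824230-72824529, plus strand: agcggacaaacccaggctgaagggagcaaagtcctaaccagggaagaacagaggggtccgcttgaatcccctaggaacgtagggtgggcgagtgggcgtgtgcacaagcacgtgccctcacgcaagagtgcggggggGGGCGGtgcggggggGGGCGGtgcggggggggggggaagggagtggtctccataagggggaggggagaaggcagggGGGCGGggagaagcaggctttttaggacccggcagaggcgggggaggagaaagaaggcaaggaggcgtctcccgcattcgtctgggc
Igfbp3, chr11:7213874-7214173, minus strand: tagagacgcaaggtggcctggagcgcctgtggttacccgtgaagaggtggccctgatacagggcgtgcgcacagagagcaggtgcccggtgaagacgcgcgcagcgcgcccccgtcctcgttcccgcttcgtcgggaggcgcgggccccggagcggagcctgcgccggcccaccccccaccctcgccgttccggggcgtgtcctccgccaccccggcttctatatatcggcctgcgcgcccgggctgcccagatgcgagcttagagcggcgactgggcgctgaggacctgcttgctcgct
Igfbp5, chr1:72874816-72875115, minus strand: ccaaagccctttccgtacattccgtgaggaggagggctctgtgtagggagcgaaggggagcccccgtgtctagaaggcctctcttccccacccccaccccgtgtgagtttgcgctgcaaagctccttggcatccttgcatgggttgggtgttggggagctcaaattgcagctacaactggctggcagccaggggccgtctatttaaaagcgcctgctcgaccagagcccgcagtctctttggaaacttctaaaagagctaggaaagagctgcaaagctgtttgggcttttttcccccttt

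The Igfbp2 window held 3 GC boxes and the windows of Igfbp3 and Igfbp5 held 0, while 35.7% of 32851 RefSeq promoter windows of this length held at least 1. The TATA letters TATAAA or TTTATA were absent from all 3, and 13.6% of all windows held them. The Igfbp3 window had 37 CpG dinucleotides and 71.7% G and C, the Igfbp2 window 18 and 67.0%, and the Igfbp5 window 10 and 56.3%, against a median of 7 CpG over all windows. A second annotated Igfbp2 start, at chr1:72825137-72825436, held 0 GC boxes. A match describes the letters only.

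Igfbp5 (1452114_s_at), the gene of a binding protein that also attaches to the extracellular matrix, had signals of 4995, 4002 and 6120 in the 3447 SP, of 3894, 6932 and 5054 in the 4346 SP and of 4113, 4214 and 2325 in the 3447 non-SP. Neurosphere cells had Igfbp5 signals of 2644, 2764 and 7506 in SP cells and of 1187, 1301 and 7361 in non-SP cells. Array 3 of both neurosphere groups was higher than every tumour array, and 8 of the 9 tumour arrays were higher than the other 4 neurosphere arrays, the exception being array 3 of the 3447 non-SP at 2325. The log2 differences were 0.44 ± 0.54, 0.42 ± 0.54 and 0.61 ± 0.54 in the 3447 SP, the 4346 SP and the 3447 non-SP, with adjusted p of 0.628, 0.616 and 0.491. Without both neurosphere arrays numbered 3, an alternative added after the values were seen, they were 0.92, 0.90 and 1.45 with adjusted p of 0.0368, 0.0349 and 0.00216. The 3447 non-SP value also passed without array 3 of the neurosphere non-SP alone (1.45, adjusted p 0.0171). Both settings leave out array 3, the highest of its neurosphere group for this gene, so these values are a description. With all arrays, a second Igfbp5 probe set, 1422313_a_at, gave 0.40, 0.03 and -0.19 in the same order, none of them passing. The sign in the 3447 non-SP was thus not shared by both probe sets.

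Igfbp4 (1437405_a_at; chromosome 11, 99040005 to 99052655), the gene of a binding protein that inhibits IGF action until a protease cuts it, had signals of 80.3, 37.6 and 150.1 in the 3447 SP, of 923.9, 299.4 and 256.4 in the 4346 SP and of 52.3, 151.1 and 37.9 in the 3447 non-SP. Neurosphere signals of Igfbp4 were 160.5, 385.3 and 2317 in SP cells and 119.5, 201.5 and 2354 in non-SP cells. The 3447 SP lay below both the 4346 SP and the neurosphere SP without overlap, by a narrow margin in the second case, while the 4346 SP and the neurosphere SP overlapped. The difference between the 3447 SP and the neurosphere SP was -2.65 ± 0.95 on the log2 scale and missed the threshold at an adjusted p of 0.0607. With the neurosphere replicate number as a block, the same difference had an adjusted p of 0.0258. That block joins SP and non-SP arrays of neurospheres, so it alters the estimate of spread here and does not pair the compared groups. The difference also passed in 5 of the other 29 alternatives, among them the fit of the compared groups only (adjusted p 0.0376), and its adjusted p ranged up to 0.259. Leaving out 1 array moved it between -3.45 (without neurosphere SP array 1, adjusted p 0.0283) and -1.62 (without neurosphere SP array 3). In the 3447 non-SP the difference was -2.08 ± 0.95 (adjusted p 0.143) and in the 4346 SP -0.37 ± 0.95 (adjusted p 0.816). Without array 3 of the neurosphere non-SP or SP they were -0.80 and 0.66, so the sign in the 4346 SP turned. The other 4 Igfbp4 probe sets that passed the filter ranged from -2.74 to -1.51 in the 3447 SP comparison and from -0.70 to -0.40 in that of the 4346 SP, so all 5 ran the same way. A single one of them, 1437406_x_at, passed in the 3447 non-SP, at -2.41 with an adjusted p of 0.0479.

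Igfbp7 (1423584_at; chromosome 5, 77349240 to 77408045), which encodes the distant binding protein relative, had signals of 58.1, 39.7 and 87.5 in the 3447 SP, of 53.8, 55.2 and 689.4 in the 4346 SP and of 24.3, 3.85 and 21.9 in the 3447 non-SP. The neurosphere arrays gave 38.3, 18.3 and 18.5 in SP cells and 9.25, 10.5 and 16.3 in non-SP cells. Array 3 of the 4346 SP stood far above all others, and it is the array with the high 3' to 5' ratio. The probe set lay above the array median on the 3 arrays of the 4346 SP and on no other array, so it passed the filter only through the group in which it was high, and its difference there is a description. The 4346 SP exceeded the neurosphere SP by 2.09 ± 0.66 on the log2 scale (adjusted p 0.0303). Without that array the difference was 1.05 and its adjusted p was 0.136, and it missed the threshold in 8 of 30 alternatives. The other 2 Igfbp7 probe sets, which did not pass the filter, had signals of 47.9 and 47.2 on that array, near its median of 48.8. The 3447 SP differed from the neurosphere SP by 0.74 ± 0.66 (adjusted p 0.486) and the 3447 non-SP from the neurosphere non-SP by 0.38 ± 0.66 (adjusted p 0.744).

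Igf1r (1428967_at; chromosome 7, 67952257 to 68233668), which encodes the signalling receptor, had signals of 2911, 1939 and 3323 in the 3447 SP, of 3885, 3162 and 1400 in the 4346 SP and of 3744, 3112 and 2261 in the 3447 non-SP. Its neurosphere signals were 1124, 1206 and 3382 in SP cells and 1379, 1755 and 3968 in non-SP cells. The gene was thus well above the array median in all groups, and array 3 of each neurosphere group was the highest there. The log2 differences of 0.66 ± 0.46, 0.59 ± 0.46 and 0.47 ± 0.46 for the 3447 SP, the 4346 SP and the 3447 non-SP had adjusted p of 0.354, 0.377 and 0.540. Without both neurosphere arrays numbered 3 the first and second passed, at 1.17 (adjusted p 0.0380) and 1.11 (adjusted p 0.0432). That alternative was added after the values were seen, and it removes the highest neurosphere arrays of this gene, so it is a description. The next probe set, 1452982_at, gave 0.75, 0.75 and 0.70, and the dimmer 1426565_at gave -0.20, 0.43 and 0.66, all without passing.

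Igf2r (1424111_at; chromosome 17, 12682406 to 12769706), the clearance receptor, had signals of 2094, 1755 and 1452 in the 3447 SP, of 1889, 2883 and 3040 in the 4346 SP and of 1816, 1946 and 1571 in the 3447 non-SP. Neurosphere signals of Igf2r were 2025, 1708 and 3709 in SP cells and 1530, 1407 and 3022 in non-SP cells. All groups overlapped with their neurosphere counterpart. The log2 differences were -0.43 ± 0.31, 0.10 ± 0.31 and -0.08 ± 0.31, with 95% intervals of -1.09 to 0.24, -0.56 to 0.77 and -0.74 to 0.59. A second Igf2r probe set, 1424112_at, gave 0.09, 0.49 and -0.26, none of them passing, so the sign in the 3447 SP was not shared. A probe set annotated to both Igf2r and Airn, the antisense transcript that silences the paternal Igf2r allele, ran from 3.31 to 37.5 and was not used.

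On the probe set used for Igf1, 3 of the 15 arrays lay above their median. Igf1 (1452014_a_at; chromosome 10, 87858265 to 87937047) had signals of 27.0, 14.2 and 55.6 in the 3447 SP, of 38.7, 21.4 and 92.9 in the 4346 SP and of 3.61, 37.8 and 4.27 in the 3447 non-SP. The neurosphere signals were 4.45, 73.8 and 36.2 in SP cells and 47.2, 167.8 and 17.1 in non-SP cells. On all 4 Igf1 probe sets array 2 of the neurosphere non-SP was the highest of the 15, reaching 447.8 on 1437401_at and 422.9 on 1434413_at, where the array's median was 68.1. Array 2 of the neurosphere SP had 113.8 and 149.8 on these probe sets, where its median was 51.8. The log2 differences from the neurosphere groups were -0.17 ± 0.60 in the 3447 SP, 0.66 ± 0.60 in the 4346 SP and -1.27 ± 0.60 in the 3447 non-SP, with adjusted p of 0.882, 0.458 and 0.158. The other Igf1 probe set that passed the filter, 1437401_at, gave -1.35, -0.24 and -1.79 in the same order, none of them passing. The sign in the 4346 SP was thus not shared. Igf2 (chromosome 7, 142650768 to 142666816), the fetal growth factor whose paternal allele is the active one, was never above its array's median, and its brighter probe set, 1415931_at, ran from 0.548 to 53.5. Igfbp6 (1417933_at; chromosome 15, 102144186 to 102149512), the gene of a binding protein that prefers IGF2, ran from 1.06 to 43.2 and was likewise never above the median. In a fit without the filter, which tested 18193 genes, neither passed in any of the 7 comparisons, and the closest was Igfbp6 in the 4346 SP against the neurosphere SP, 0.81 ± 0.37 with an adjusted p of 0.172.

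SP and non-SP cells of 1 culture were compared to ask whether dye-excluding cells differ from the rest. None of the 8 tested IGF genes passed in line 3447, where limma called 1 gene of 11908, 0.00840%, and 1 IGF gene had an unadjusted p under 0.05, against 7.21% of all genes. That gene was Igfbp3. Its 3 signals in the 3447 SP, 2107, 2484 and 1589, were all above its 3 signals in the 3447 non-SP, 1429, 1472 and 1187. The log2 difference was 0.59 ± 0.20 (unadjusted p 0.00887, adjusted p 0.496), and the lowest adjusted p over 30 alternatives was 0.0581. The second probe set gave 0.34 ± 0.28. Igfbp7 was the other gene without overlap, with 0.87 ± 0.66 (adjusted p 0.846), and 17.5% of all genes did not overlap in this comparison. The remaining 6 genes overlapped, and their log2 differences ran from -0.14 for Igf1r to 0.58 for Igfbp5.

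In neurospheres 0 of 8 IGF genes passed and 0 had an unadjusted p under 0.05 by limma, against 0.0168% and 3.59% of all genes. The largest differences were 0.75 ± 0.54 for Igfbp5 and -0.70 ± 0.60 for Igf1, both at an adjusted p of 1, and 0 of the 8 genes separated the neurosphere SP from the non-SP, against 7.60% of all genes. Igfbp2 differed by 0.31 ± 0.59 and Igfbp3 by 0.05 ± 0.20, with 95% intervals of -0.94 to 1.55 and -0.37 to 0.47. Neurosphere arrays of equal number pair, as described below. Within the 3 pairs Igf2r was higher in SP cells by 0.42, 0.25 and 0.30, Igfbp5 by 1.16, 1.07 and 0.03, Igfbp4 by 0.44, 1.07 and 0.02 and Igfbp3 by 0.09, 0.01 and 0.04, while Igf1r differed by -0.24, -0.56 and -0.20. These 5 of 8 genes had the same sign in every pair, against 35.4% of all genes. With the pair as a block 0 of 8 passed, against 0.0588% of all genes, and 1, Igfbp5, had an unadjusted p under 0.05, against 5.98% (0.75 ± 0.28, unadjusted p 0.0165, adjusted p 0.673). The difference between the SP effect of line 3447 and that of neurospheres was tested as an interaction. It called 0 IGF genes and 0 of all genes, and at an unadjusted p under 0.05 the counts were 0 IGF genes and 266 of all genes, 2.23%. For Igfbp3 this difference was 0.54 ± 0.28 (unadjusted p 0.0707, adjusted p 0.999).

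**Figure D3:**
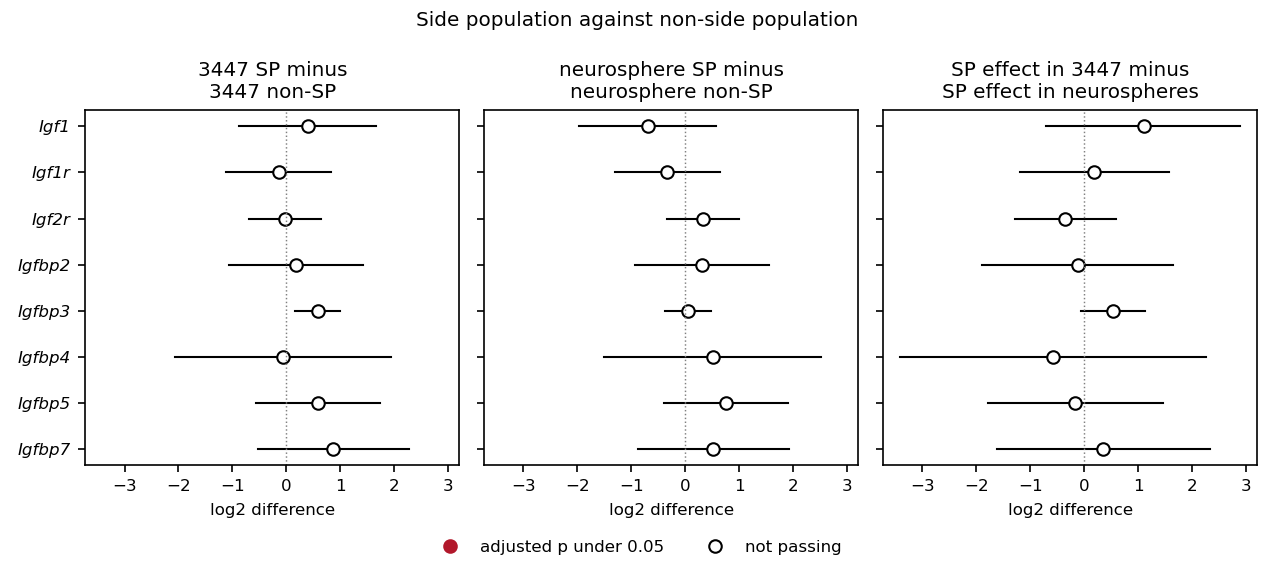
Log2 difference of the 8 tested IGF genes between SP and non-SP cells of line 3447, between SP and non-SP cells of neurospheres, and between those SP effects, with 95% intervals and 3 arrays per group. No point is filled, since none passed the adjusted p threshold of 0.05. The interval of Igfbp3 in line 3447, 0.17 to 1.00, is the only one in these panels that leaves out 0.

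The SP cells of line 3447 and line 4346 were compared directly. limma called 0 of 8 IGF genes here, against 1.65% of all genes, and 1 had an unadjusted p under 0.05, against 16.6% of all genes. That gene was Igfbp4, which was lower in the 3447 SP by the signals given above. The log2 difference was -2.28 ± 0.95 (adjusted p 0.246), and the other 4 probe sets that passed the filter ranged from -2.35 to -0.99, with no overlap on any after normalization. Igf1 (-0.83 ± 0.60) and Igfbp7 (-1.35 ± 0.66) were also lower on every 3447 SP array than on every 4346 SP array after normalization, with adjusted p of 0.515 and 0.317, and 19.6% of all genes did not overlap. Igfbp2, Igfbp3 and Igfbp5 differed between the lines by -0.43 ± 0.59, -0.29 ± 0.20 and 0.02 ± 0.54, with overlapping arrays.

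Several IGF genes were high together on the neurosphere arrays numbered 3. In neurospheres the SP and non-SP arrays of equal number deviated from their group means together, with correlations of 0.577, 0.522 and 0.621. On both arrays numbered 3, Igf1r, Igf2r, Igfbp2, Igfbp4 and Igfbp5 were higher than on the other 4 neurosphere arrays, 5 of the 8 tested IGF genes, against 14.8% of all genes. For arrays numbered 1 and 2 the count was 1 gene each, Igfbp3 and Igf1, against 12.7% and 10.5% of all genes. The excess of array 3 over the mean of arrays 1 and 2 was 3.10 in SP and 3.83 in non-SP cells for Igfbp4, 1.44 and 2.52 for Igfbp5, and 1.18 and 1.77 for Igfbp2 on the log2 scale. It was 1.54 and 1.34 for Igf1r and 1.00 and 1.03 for Igf2r, while for Igfbp3 it was -0.04 and -0.03. This count was made after the values were seen and is given as a description, with no test.

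**Figure D4:**
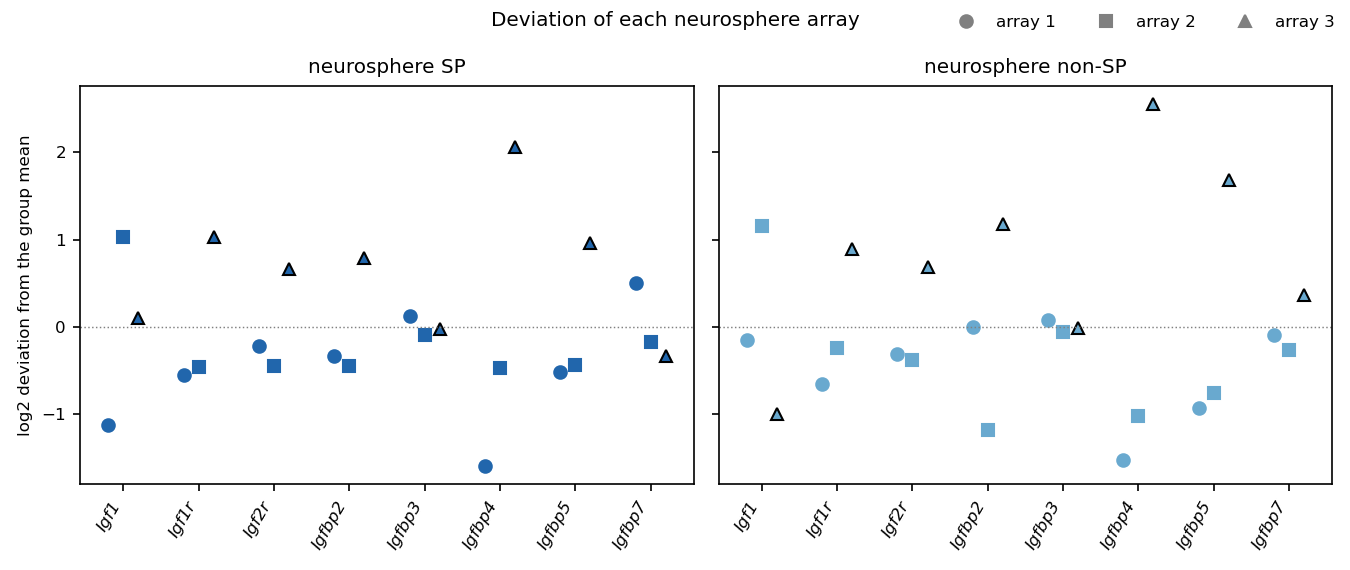
Deviation of each neurosphere array from its group mean for the 8 tested IGF genes, on the log2 scale, in SP cells on the left and non-SP cells on the right. Circles, squares and triangles are arrays 1, 2 and 3, with array 3 outlined in black. The triangles stand highest for Igf1r, Igf2r, Igfbp2, Igfbp4 and Igfbp5 in both panels, and for Igfbp3 they lie at 0 within 0.04.

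The other genes of the pathway were taken from lists of binding protein relatives, proteases, receptor adaptors, PI3 kinase and FOXO genes and regulators of Igf2, 61 entries of which 56 were on the array and 47 were tested. In the 3447 SP against the neurosphere SP 9 were higher and 5 lower, 29.8% of the 47 against 19.6% of all genes. In the 4346 SP 9 were higher and 4 lower, 27.7% against 24.3%. In the 3447 non-SP against the neurosphere non-SP 9 were higher and 6 lower, 31.9% against 19.4%. The median log2 differences of the 47 genes were 0.07, 0.03 and 0.16. In SP against non-SP cells of line 3447 and of neurospheres, in the interaction and between the lines limma called 0 of the 47, of which 5, 2, 3 and 11 had an unadjusted p under 0.05, against 7.21%, 3.59%, 2.23% and 16.6% of all genes.

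Among 4 tested relatives of the binding proteins, Kazald1, which encodes a secreted protein with an IGFBP-like domain, was higher in all tumour groups. Its signals were 1363, 1327 and 1322 in the 3447 SP, 1483, 1472 and 2894 in the 4346 SP and 463.6, 848.3 and 504.8 in the 3447 non-SP. In neurospheres they were 53.1, 39.3 and 218.7 in SP cells and 43.9, 28.3 and 143.8 in non-SP cells, below every tumour array. The log2 differences were 3.77 ± 0.54, 4.22 ± 0.54 and 3.03 ± 0.54, with adjusted p of 0.000106, 3.55e-05 and 0.000769. Htra1, a secreted serine protease with an IGFBP-like domain, averaged 254.4 ± 55.0 in the 3447 SP, 481.4 ± 427 in the 4346 SP and 135.7 ± 29.4 in the 3447 non-SP, against 1846 ± 221 in the neurosphere SP and 1300 ± 653 in the neurosphere non-SP (SD, n = 3). Its log2 differences of -2.87 ± 0.47, -2.20 ± 0.47 and -2.94 ± 0.47 passed under all 30 alternatives. Esm1, an endothelial secreted proteoglycan with such a domain, was higher in line 3447, by 2.18 ± 0.57 in SP cells (adjusted p 0.0125) and 3.38 ± 0.57 in non-SP cells (adjusted p 0.000494). The first call was lost without array 1 or array 3 of the 3447 SP, and its value was 3.60 and 1.14 with constants of 1 and 64. Esm1 lay above the array median on 5 arrays, all of line 3447, so it too entered the test only through the groups in which it was high. In the 4346 SP it differed by 0.71 ± 0.57 (adjusted p 0.395).

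Of 6 tested IGFBP proteases and their inhibitors, Stc1 alone passed. It encodes stanniocalcin 1, an inhibitor of the protease pappalysin that cuts IGFBP4. Its signals were 2.44, 1.69 and 50.4 in the 3447 SP, 514.9, 139.2 and 2.65 in the 4346 SP and 19.8, 10.5 and 13.7 in the 3447 non-SP. In neurospheres they were 901.9, 787.8 and 771.1 in SP cells and 848.5, 468 and 495.2 in non-SP cells. Line 3447 was near background in both populations, and the 4346 SP arrays were spread between background and the neurosphere level. The log2 differences were -5.13 ± 0.79, -2.85 ± 0.79 and -4.11 ± 0.79, with adjusted p of 0.000222, 0.0153 and 0.00147, and the second was lost when its own groups were fitted alone or arrays were weighted. Stc1 lay above the array median on no array of line 3447. It passed the filter only through neurosphere and 4346 SP arrays on which it was high, so its differences in line 3447 are a description. Their sizes depend on the constant added before the logarithm. With constants of 1 and 64 the 3447 SP values were -6.87 and -3.61 and the 3447 non-SP values -4.99 and -2.95. The 4346 SP value was -3.93 without its array 1 and -1.53 without its array 3. Pappa, which encodes the protease itself, did not pass in any comparison.

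Of 12 tested receptor and adaptor genes, Grb10, an imprinted adaptor that binds and inhibits the insulin and IGF1 receptors, was higher in all tumour groups. Its signals were 10790, 12530 and 12280 in the 3447 SP, 14360, 15150 and 13190 in the 4346 SP and 14680, 12670 and 12890 in the 3447 non-SP. In neurospheres they were 2090, 1218 and 61.5 in SP cells and 2200, 1838 and 13.2 in non-SP cells. Array 3 of each neurosphere group, which was high for Igfbp4 and Igfbp5, was the lowest for Grb10. The log2 differences were 4.43 ± 1.26, 4.57 ± 1.26 and 4.65 ± 1.26, with adjusted p of 0.0208, 0.0150 and 0.0156. Over the alternatives they ranged from 2.72 to 5.36, from 3.03 to 5.50 and from 2.66 to 5.70, and without array 3 of the neurosphere group compared they were 2.94, 3.09 and 2.66. Without array 1 of that group they were 5.36, 5.50 and 5.70. The 3447 SP call was lost when any 1 of its own 3 arrays or array 3 of the neurosphere SP was left out, and the last of these ended the 4346 SP call too, while that in the 3447 non-SP passed under all 30 alternatives. The alternative added after the values were seen left out both neurosphere arrays numbered 3. It gave Grb10 2.94, 3.09 and 2.66, with adjusted p of 2.92e-08, 1.58e-08 and 7.03e-08. Insr, the insulin receptor, was higher by 0.86 ± 0.28, 1.04 ± 0.28 and 0.88 ± 0.28 (adjusted p 0.0389, 0.0125 and 0.0354), and they passed in 17, 29 and 23 of 30 alternatives. The third was lost without any 1 of the 3447 non-SP arrays or without array 1 or 2 of the neurosphere non-SP, and the first without any 1 array of the 3447 SP, the 3447 non-SP or the neurosphere SP. Averaging the probe sets of a gene ended all 3 Insr calls, and it was the only setting that ended the 4346 SP call. Gab1, a docking adaptor, was higher in the 3447 SP by 1.24 ± 0.21 (adjusted p 0.000620) and in the 4346 SP by 1.08 ± 0.21 (adjusted p 0.00164), and differed by 0.53 ± 0.21 in the 3447 non-SP (adjusted p 0.0976). Socs2, an inhibitor of growth hormone signalling, was lower in the 3447 non-SP at -2.06 ± 0.55 (adjusted p 0.0146).

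Downstream, Pik3r1, the regulatory subunit of PI3 kinase, was higher by 1.37 ± 0.15 in the 3447 SP, 1.28 ± 0.15 in the 4346 SP and 0.83 ± 0.15 in the 3447 non-SP, with adjusted p of 1.03e-05, 2.08e-05 and 0.00114. Foxo3 and Foxo4, transcription factors that AKT holds out of the nucleus, were higher in all 3 comparisons. Foxo3 differed by 0.65 ± 0.16, 0.65 ± 0.16 and 0.70 ± 0.16, and Foxo4 by 0.97 ± 0.25, 1.47 ± 0.25 and 1.37 ± 0.25. Akt1, the kinase between them, was lower in the 3447 SP at -0.63 ± 0.20 (adjusted p 0.0356, in 23 of 30 alternatives) and in the 4346 SP at -0.80 ± 0.20 (adjusted p 0.00782, in 27 of 30). Rheb, the small GTPase that activates mTORC1, was lower in the 3447 SP at -0.50 ± 0.15 (adjusted p 0.0242, in 22 of 30) and in the 3447 non-SP at -0.45 ± 0.15 (adjusted p 0.0378, in 20 of 30). Rictor, a defining subunit of mTORC2, was higher in the 4346 SP at 0.82 ± 0.25 (adjusted p 0.0267, in 22 of 30) and in the 3447 non-SP at 1.00 ± 0.25 (adjusted p 0.0101, in 27 of 30). Averaging the probe sets of a gene ended both Rictor calls and the Akt1 call in the 4346 SP. Of the 21 genes of this list 4, 4 and 5 were higher in the 3447 SP, the 4346 SP and the 3447 non-SP, where 10.7%, 14.0% and 11.2% of all genes were, and 2, 1 and 1 were lower, where 8.96%, 10.3% and 8.21% were.

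Among 4 tested regulators of Igf2, Hmga2, a chromatin protein of neural stem cells that promotes expression of the Igf2 mRNA-binding proteins, was lower in all tumour groups, at -1.34 ± 0.33, -1.42 ± 0.33 and -1.39 ± 0.33 (adjusted p 0.00921, 0.00542 and 0.00720). Plagl1, an imprinted zinc finger factor known to activate Igf2, was lower in the 3447 non-SP than in the neurosphere non-SP at -2.35 ± 0.49 (adjusted p 0.00293). Its signals were 554.1, 793 and 237.3 in the 3447 non-SP, and 2084, 6318 and 1151 in the neurosphere non-SP. In the 3447 SP the Plagl1 signals were 2885, 1547 and 2101, above all those of the 3447 non-SP, and the difference of 2.14 ± 0.49 between them did not pass (unadjusted p 0.000531, adjusted p 0.198). Igf2bp3, which encodes an RNA-binding protein named for Igf2, had an adjusted p of 0.145 or above in the tumour comparisons. Igf2 itself was below the array median on every array, as given above.

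**Figure D5:**
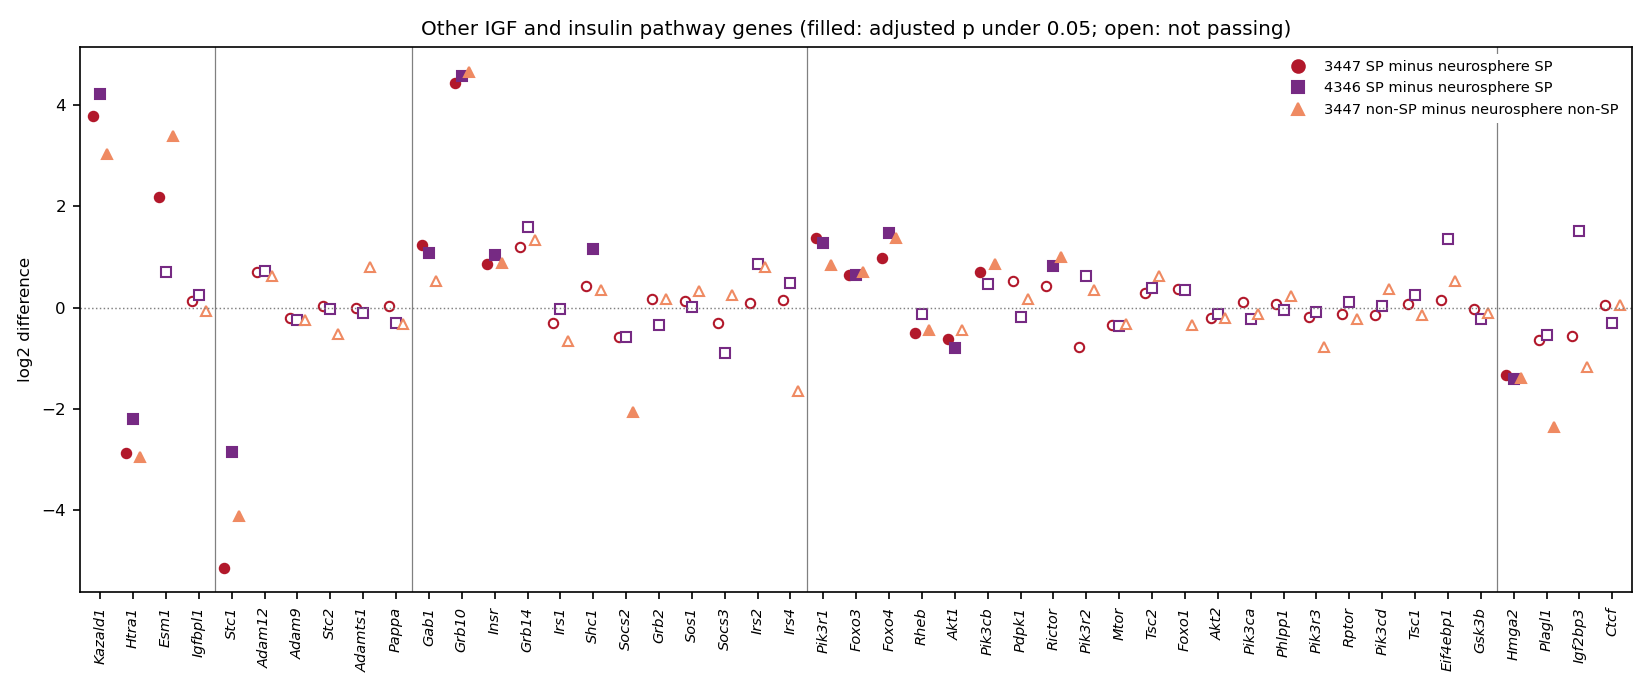
Log2 difference of the tested IGF and insulin pathway genes outside the IGF family itself, with 1 column per gene and vertical lines between the lists of binding protein relatives, proteases, adaptors, PI3 kinase and FOXO genes and Igf2 regulators. Circles, squares and triangles are the 3447 SP minus the neurosphere SP, the 4346 SP minus the neurosphere SP and the 3447 non-SP minus the neurosphere non-SP, and filled markers passed the adjusted p threshold of 0.05. Grb10 and Kazald1 reach highest, and Stc1 and Htra1 reach lowest.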

How the data were processed

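Gene expression of sorted mouse brain tumour and neurosphere cells was measured on 15 Affymetrix arrays. Per the labels' protocols, total RNA was isolated with the RNeasy Micro kit, amplified with an Ovation Pico kit from NuGEN and biotin-labelled. Each deposited value is a MAS5 signal intensity on a linear scale, which the authors made in Affymetrix Expression Console per the submitters' processing notes, with a trimmed mean of 500 on every array. The number of arrays limits the precision.

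Because array medians differed by over 1.5 times, the values were quantile-normalized and log2(signal + 16) was taken, which understates the change of dim genes. Signals in the text are as deposited, in the order of arrays 1 to 3, and differences are on the normalized scale. Of 45037 probe sets without 64 controls, 34945 had 1 gene symbol in the platform annotation, 932 several and 9160 none. Those above the median of their own array on at least 3 arrays were kept (26256), and a gene was represented by its brightest one, giving 11908 genes. limma 3.58.1 in R 4.3.3 fitted 5 group means to all 15 arrays (10 residual degrees of freedom, spread allowed to follow level). Its moderated tests were two-sided, and p-values were adjusted by Benjamini-Hochberg over the 11908 genes, with a threshold of 0.05. For 7 comparisons 30 alternatives were run, and the model was tested on simulated data. Levels were not compared between probe sets. Coordinates and promoter sequences are those of RefSeq for GRCm38.p6, and the build behind the array annotation was not given in the sources used here.

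Equal replicate numbers of SP and non-SP arrays were checked by correlating how far each lay from its group mean. The correlation was 0.577, 0.522 and 0.621 in neurospheres, which therefore pair, and -0.225, -0.249 and -0.12 in line 3447, where equal numbers do not pair. There SP arrays 1, 2 and 3 correlated at 0.366, 0.296 and 0.217 with non-SP arrays 2, 3 and 1. Whether line 3447 pairs in that order was not tested. The IGF genes and the gene lists were chosen with earlier results of these data known. All 10 IGF genes are named, with at most 4 genes of each list per comparison, those with the smallest p.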

Additional observations from a re-analysis of the deposited data

How the results depend on the processing

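The calls of Igfbp2 and Igfbp3 in the 3 comparisons of tumour with neurosphere cells kept their direction and passed under all 30 alternatives, with log2 differences of -5.98 to -4.62 for Igfbp2 and -2.80 to -1.46 for Igfbp3. The number of IGF genes called moved without both neurosphere arrays numbered 3, the alternative chosen after seeing the data. It was then 4 in the 3447 SP against the neurosphere SP and 1 in the 3447 SP against the 4346 SP, where Igfbp4 had -2.28 with an adjusted p of 0.0257. In the 4346 SP against the neurosphere SP, Igf1r and Igfbp5 then passed and Igfbp7 did not (1.92, adjusted p 0.0847). In the 3447 non-SP against the neurosphere non-SP, Igfbp5 passed as well. The cause was not tested. The arrays left out were the highest neurosphere arrays of Igf1r and Igfbp5, so the passes of these genes are a description. The Igfbp7 call in the 4346 SP had a range of 1.05 to 2.61 when arrays were left out 1 at a time, and it was lost with a constant of 1 (2.61, adjusted p 0.0573), the compared groups only (adjusted p 0.104), array weights (1.23, adjusted p 0.0975) and without neurosphere SP array 2 or 3 (adjusted p 0.0782 and 0.0833). With the replicate number as a block among neurospheres, Igfbp4 in the 3447 SP passed (adjusted p 0.0258), and with the block in both origins its adjusted p was 0.0415. The pairing changed no other call of an IGF gene. Without the filter the share of all genes called was 11.3% in the 3447 SP, 14.4% in the 4346 SP and 11.2% in the 3447 non-SP against neurospheres. Between the lines it was 3.08% with arrays centred on their medians and 0.605% without both tumour SP arrays numbered 3. Signals near background and 3 arrays a group limit what can be measured for Igf1, Igf2, Igfbp6 and Igfbp7.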

Other observations

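The genes whose pattern over the 15 arrays was most like that of Igfbp2 were Slco5a1, Fgf1 and Plvap, with Pearson r of 0.983, 0.976 and 0.976 on the normalized log2 scale, and 131 tested genes had r over 0.9. All 15 arrays share the split between tumour and neurosphere cells. For Igfbp4 the closest were Adamts12, a metalloprotease, with r of 0.935, Tspan9 with 0.892 and Suclg2 with 0.889, and 1 gene exceeded 0.9. For Igfbp7 they were Rassf10 with 0.930, Arhgef25 with 0.921 and Sil1 with 0.910, and 9 genes exceeded 0.9. These correlations describe 15 arrays of 5 groups and carry no test.

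Of the IGF family genes outside the set above, Igfbp1, which encodes a binding protein of the liver, ran from 0.669 to 42.0 over the 15 arrays and did not pass the filter. The antisense transcripts Igf1os and Igf2os ran from 0.522 to 37.1 and from 1.08 to 26.1, and did not pass either.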
